A study of Rattus norvegicus with 4 samples.

Results

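The enzymes that break down adenine nucleotides to urate, and those that return their products to the nucleotide pool, were read in rat gracilis, a thin muscle of the inner thigh, after ischemia and reperfusion. The set held 9 genes (Xdh, Ampd1, Ampd2, Ampd3, Nt5e, Ada, Adk, Hprt1 and Uox), taken by gene name from 35595 named features of a whole-genome oligonucleotide array, and 16 of its 41012 probes read them. Each array paired injured muscle, labelled with the red dye Cy5, with sham-operated muscle, labelled with the green dye Cy3. The injured muscles came from male Sprague-Dawley rats given 4 h of ischemia and then 1, 3, 7 or 14 days of reperfusion. The controls were sham-operated gracilis of the same strain and sex. Each day had 1 array, with no dye swap and no unoperated muscle. Injured muscle was Cy5 on every array, so an effect of the dye on a gene cannot be told apart from that of injury. Effects of the animal and the day cannot be told apart either. The day 14 array was also scanned in another session than the other 3. The labels do not say whether the 4 arrays shared sham RNA.

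Adenine nucleotides that are lost from working or ischemic muscle leave by deamination of AMP to IMP, which AMP deaminases carry out, or by dephosphorylation of AMP to adenosine. Adenosine is deaminated to inosine or phosphorylated back to AMP, and inosine yields hypoxanthine. Xanthine dehydrogenase oxidises hypoxanthine to xanthine and xanthine to urate. Its oxidase form passes electrons to oxygen and is a classical candidate source of radicals in reperfused tissue. Rodents, unlike humans, degrade urate further with urate oxidase, mainly in the liver.

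Xdh and Ampd3 kept their side of sham on every day, and Ampd1 changed sides. Xdh RNA was 2.07- to 3.71-fold higher in injured muscle over the 4 days. Ampd3 RNA was 3.84- to 8.25-fold lower. Ampd1 RNA was 28.5-fold lower on day 1 and 84.1-fold lower on day 3, and 3.43-fold higher on day 14. Ampd2, Nt5e, Ada, Adk and Hprt1 stayed within 2-fold of sham on all 4 days, and Uox was not well above background. No day had a replicate, so no test stands behind a single day's fold, and 2-fold is used only to sort values by size.

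The probes that carry these 3 courses are printed because each is the only or the brightest reading of its gene, and the ratio says only what hybridised to these 60 bases. Xdh was read at chr6:21589937-21589997 on the plus strand, Ampd1 at chr2:198330906-198330965 on the plus strand, and Ampd3 at chr1:168568143-168568202 on the plus strand, all in the rn4 build that the file headers name. No annotation of that build was used here, so exon positions are not given.
Xdh: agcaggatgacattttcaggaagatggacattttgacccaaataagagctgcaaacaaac
Ampd1: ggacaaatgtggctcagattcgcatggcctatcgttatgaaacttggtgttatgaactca
Ampd3: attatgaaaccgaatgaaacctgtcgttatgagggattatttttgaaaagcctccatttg

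Xdh encodes xanthine dehydrogenase, the enzyme whose oxidase form is studied in reperfusion. Its level, in log2 units of normalised intensity, was 10.86, 10.32, 10.66 and 10.65 in injured muscle on days 1, 3, 7 and 14, against 8.96, 9.28, 9.30 and 9.11 in sham muscle. Every injured level lay above every sham level, and the 4 sham levels spanned 0.33 log2 units. Of 20504 genes measured on all 4 arrays, 4.9% had all injured levels above all sham levels. The log2 ratio of injured over sham was 1.89 on day 1, 1.05 on day 3, 1.37 on day 7 and 1.55 on day 14. On day 1 this placed Xdh at rank 23 from the highest of 22912 measured genes, and on day 3 at rank 533 of 24430. It was at rank 415 of 23458 on day 7 and at rank 290 of 23708 on day 14.

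**Figure D1:**
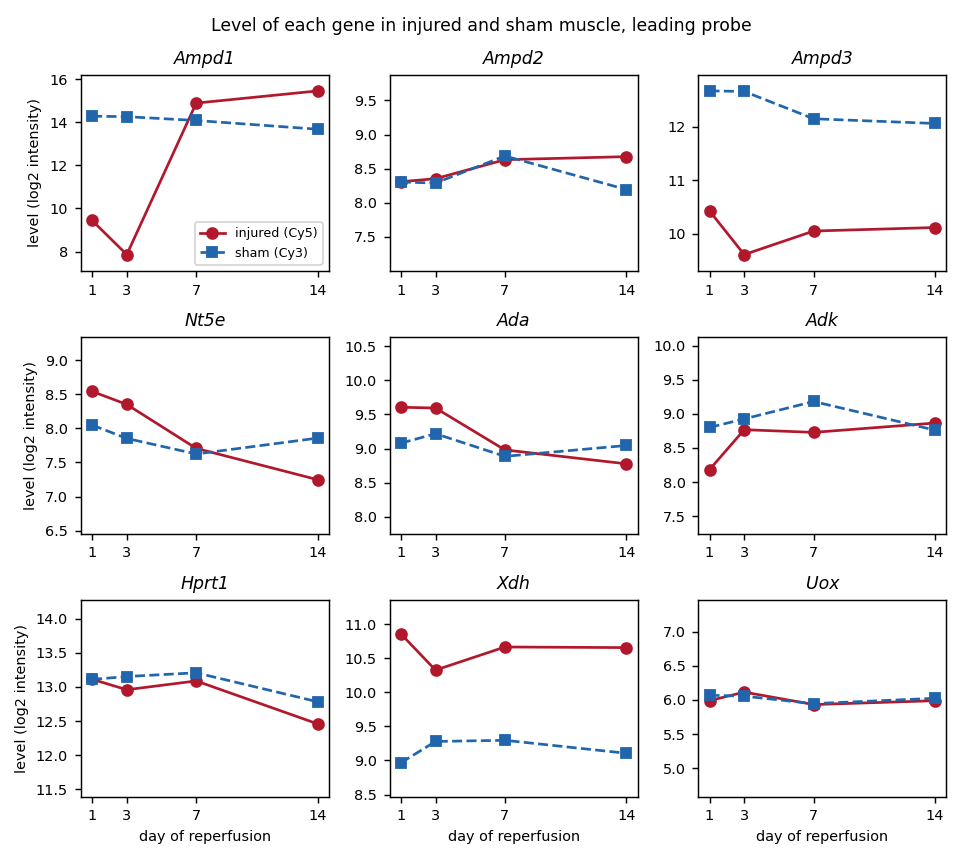
Level of each gene (log2 of normalised intensity, vertical axis) by day of reperfusion in injured muscle (circles, Cy5) and sham muscle (squares, Cy3), 1 array per day and no error bars. Xdh lies above sham and Ampd3 below it on all 4 days, Ampd1 crosses its sham level between days 3 and 7, and both Uox channels are not well above background. Vertical scales differ, and levels are not compared between genes.

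The 3 AMP deaminase genes took different courses. Ampd1 encodes the isoform of skeletal muscle fibres. Its 3′ probe, the brightest of 3, read 9.44, 7.86, 14.88 and 15.45 in injured muscle on days 1, 3, 7 and 14, against 14.28, 14.25, 14.08 and 13.67 in sham muscle. Injured levels lay below all sham levels on days 1 and 3 and above all of them on days 7 and 14. The log2 ratio was -4.84 on day 1, -6.39 on day 3, 0.81 on day 7 and 1.78 on day 14. On day 3 it was the lowest ratio of all 24430 measured genes, and on day 14 it stood at rank 209 from the highest of 23708. This probe was not flagged as saturated on any day. Its day 14 injured level lay beside those of several fast fibre genes. Tnnc2 at 15.46, Tnni2 at 15.44 and Ckm at 15.44 were flagged, and Tnnt3 at 15.45 was not. Whether the day 14 ratio is compressed was not tested. With the median over the Ampd1 probes measured on a day, dim ones included, the day 14 value was 0.12, within 2-fold. That value is the reading of a probe that was not well above background in sham muscle.

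Ampd3 encodes the isoform first described in erythrocytes, which other tissues express as well. It read 10.43, 9.61, 10.05 and 10.12 in injured muscle on days 1, 3, 7 and 14, against 12.67, 12.66, 12.15 and 12.06 in sham muscle. Every injured level lay below every sham level, an order that 4.73% of the 20504 genes shared. The log2 ratio was -2.24 on day 1, -3.04 on day 3, -2.09 on day 7 and -1.94 on day 14. Ampd3 stood at rank 286 from the lowest on day 1 and at rank 35 on day 7, when Ampd1 was on the other side of sham. Where log ratios were only centred on each array's median, its day 1 value was -0.93, within 2-fold.

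Ampd2 encodes the isoform named for liver and is expressed widely. Its brighter probe, at chr2:203633210-203633250 on the minus strand of rn4, read 8.31, 8.35, 8.63 and 8.68 in injured muscle on days 1, 3, 7 and 14, against 8.30, 8.29, 8.69 and 8.19 in sham muscle. The levels overlapped, and the log2 ratio reached 0.48 on day 14. The other Ampd2 probe was well above background in injured muscle on day 14 only. The brighter probe was named from its description, and the position given for its 60 bases spans 41. Ampd2 thus rests on 1 probe of uncertain placement.

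Beside the 2-fold counts stand the shares of all measured genes past the same size. On day 1, 1 of 8 measured members was higher and 2 were lower, where 1.24% of all genes were higher and 4.92% lower. On day 3, 1 was higher and 2 lower, against 2.48% and 3.95% of all genes. On day 7, 1 was higher and 1 lower, against 3.13% and 1.23%. On day 14, 2 were higher and 1 lower, against 3.15% and 1.56%. The median log2 ratio of the 8 members lay between -0.08 and 0.01 over the days, and that of all genes between 0.02 and 0.05. The members past 2-fold were Xdh on all 4 days, Ampd3 on all 4 days, and Ampd1 on days 1, 3 and 14. The split moved with the scaling. Under median centring without the loess step it was 4 higher and 1 lower on day 1, 3 and 2 on day 3, 2 and 1 on day 7, and 3 and 1 on day 14. On those days 22%, 17.2%, 11.6% and 12.2% of all genes were higher at that scaling, and 1.89%, 1.61%, 0.333% and 0.409% lower. That scaling put the median of all genes at 0.378, 0.293, 0.272 and 0.269 on days 1, 3, 7 and 14.

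**Figure D2:**
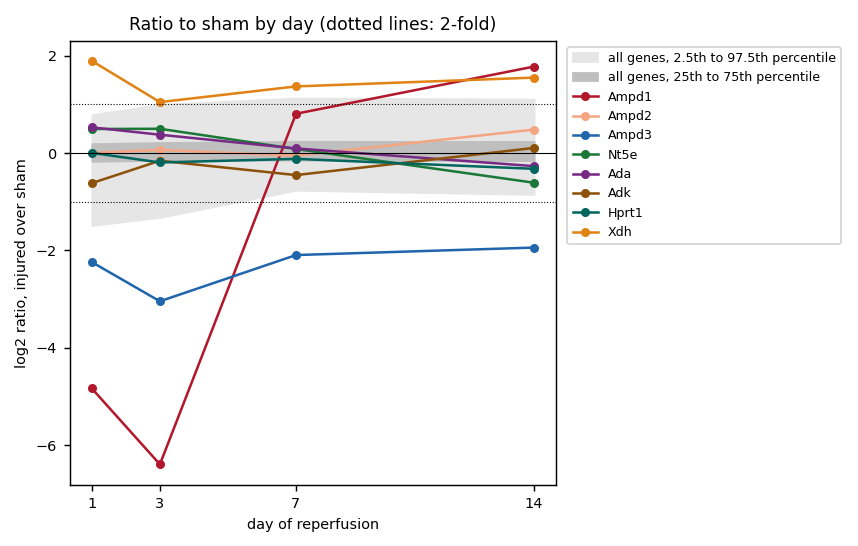
Log2 ratio of injured over sham (vertical axis) by day of reperfusion for the 8 measured genes, each by its brightest probe, with the spread of all measured genes in grey and dotted lines at 2-fold. Xdh stays above the upper line, Ampd3 below the lower line, and Ampd1 moves from -6.39 on day 3 to 1.78 on day 14.

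The mean over the 4 arrays is the only quantity with more than 1 value, and it asks for an offset shared by all days. An effect of the dye on a gene that is the same on every array would be part of that offset. By limma's moderated test with Benjamini-Hochberg adjustment over 20504 genes, Xdh averaged 1.46 ± 0.15 (SE, n = 4 arrays), higher in 4 of 4, with an adjusted p of 0.0742. Its adjusted p ranged from 0.00605 to 0.326 over the alternative settings. Ampd3 averaged -2.33 ± 0.20 (SE, n = 4 arrays), lower in 4 of 4, with an adjusted p of 0.0555 by limma and a range of 0.00965 to 0.306 over the alternatives. Ampd1 averaged -2.16 ± 1.61 (SE, n = 4 arrays), lower in 2 of 4, with an adjusted p of 0.462 by limma. The limma test thus called 0 of the 8 members, where it called 0.18% of all genes. An unadjusted p under 0.05 was found for 2 of the 8 members and for 21.8% of all genes.

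The remaining members act on adenosine and on purine bases, and none was past 2-fold on any day. Nt5e, whose product CD73 is the surface nucleotidase that forms adenosine from AMP, read 8.54, 8.35, 7.71 and 7.25 in injured muscle on days 1, 3, 7 and 14, against 8.05, 7.85, 7.62 and 7.86 in sham muscle. Its log2 ratio was 0.49 and 0.50 on days 1 and 3, 0.08 on day 7 and -0.61 on day 14. On day 14 the authors' deposited ratio was -1.01, just past 2-fold.

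Ada, adenosine deaminase, had a log2 ratio of 0.53, 0.38, 0.09 and -0.27 on days 1, 3, 7 and 14. Its second probe gave 0.52, 0.41, 0.03 and -0.17, so the probes ran alike. Levels of the brighter probe were 9.61, 9.59, 8.98 and 8.78 in injured muscle, against 9.08, 9.22, 8.89 and 9.05 in sham muscle. Injured levels lay above all sham levels on days 1 and 3 and below all but 1 or all of them on days 7 and 14.

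Adk, adenosine kinase, returns adenosine to AMP. It read 8.18, 8.77, 8.73 and 8.87 in injured muscle on days 1, 3, 7 and 14, against 8.80, 8.93, 9.18 and 8.76 in sham muscle. The ratio was -0.62, -0.16, -0.45 and 0.10, and the levels overlapped. Its mean of -0.28 over the days turned to 0.47 under median centring, so its direction depended on the scaling.

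Hprt1 encodes the transferase that salvages hypoxanthine and guanine and is often used as a reference gene in expression work. The brightest of its 4 probes read 13.11, 12.96, 13.09 and 12.46 in injured muscle on days 1, 3, 7 and 14, against 13.11, 13.15, 13.21 and 12.78 in sham muscle. The levels overlapped on days 1 to 7, and both channels were lowest on day 14. That probe had a log2 ratio of 0.00, -0.19, -0.12 and -0.32 on days 1, 3, 7 and 14. A second probe at the same end of the gene, which shares 10 bases of genome with the first, gave -0.06, -0.31, -0.35 and -0.35. A pair of probes upstream, whose 60 bases align over 5889 and 5892 bases of genome, gave lower values on days 3 and 7. The mean of the leading probe was -0.16, and 0.91 under median centring, so Hprt1 had no settled direction. The upstream pair is printed because its probes differ by 3 bases, shown in capitals.
Hprt1 with the bases: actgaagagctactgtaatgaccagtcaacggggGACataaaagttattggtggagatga
Hprt1 without the bases: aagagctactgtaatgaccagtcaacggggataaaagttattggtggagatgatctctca

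The Hprt1 probe with the 3 bases lies in chrX:139942110-139947998 and that without them in chrX:139942114-139948005, both on the plus strand of rn4. Their log2 ratios were -0.03, -0.77, -0.71 and -0.36 with the bases and -0.04, -0.82, -0.77 and -0.34 without them on days 1, 3, 7 and 14. The versions share most of their letters, so they are not independent readings.

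**Figure D3:**
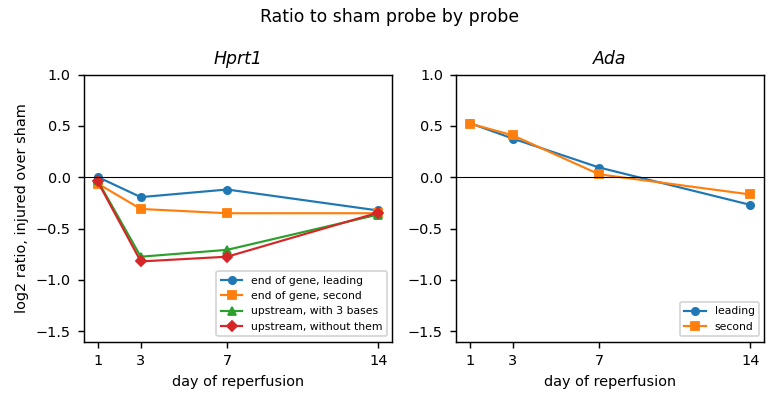
Log2 ratio of injured over sham (vertical axis) by day of reperfusion for every probe of Hprt1 and Ada. The upstream Hprt1 probes lie below the others on days 3 and 7, and the Ada probes run together.

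Uox, urate oxidase, was not well above background in injured or sham muscle on any day. No ratio is given for it.

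The Ampd1 transcript was also probed near its 5′ end. Ampd1 is known to carry a short second exon that is skipped in part of its RNA. A pair of probes here differs by 12 bases. They are printed because they read the gene at another place than the 3′ probe. Capitals mark the 12 bases, with 33 shared bases before them and 15 after.
Ampd1 with the bases: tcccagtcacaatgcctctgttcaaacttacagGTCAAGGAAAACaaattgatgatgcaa
Ampd1 without the bases: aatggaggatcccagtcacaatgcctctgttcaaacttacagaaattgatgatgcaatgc

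The version with the 12 bases spans chr2:198308512-198312608 on the plus strand of rn4 and starts 22394 bases before the 3′ probe. The file gives no position for the version without them. The first was well above background in injured muscle on all 4 days and in sham muscle on none. The second was well above background in injured muscle on day 14 only, and in sham muscle on none. No ratio is read from these probes on their own, since sham muscle was not well above background on any day. They do enter the median over the Ampd1 probes. Its day 14 value of 0.12 is the reading of the version without the bases. The share of all probes well above background was 64.4% to 68.7% in the injured channel and 34.7% to 47.3% in the sham channel.

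The Ampd1 promoter is shown because Ampd1 had the widest range of ratios among the members. The RefSeq window on the GRCr8 build, chr2:193287082-193287381 on the plus strand, holds 300 bases around the annotated start, most of them before it. Capitals mark matches to CANNTG, the E-box that muscle regulatory factors and many other proteins bind. They also mark CTA and TAG with 4 bases of any kind between them, called MEF2-like here. That pattern is looser than the sites that MEF2 factors bind.
Ampd1 promoter: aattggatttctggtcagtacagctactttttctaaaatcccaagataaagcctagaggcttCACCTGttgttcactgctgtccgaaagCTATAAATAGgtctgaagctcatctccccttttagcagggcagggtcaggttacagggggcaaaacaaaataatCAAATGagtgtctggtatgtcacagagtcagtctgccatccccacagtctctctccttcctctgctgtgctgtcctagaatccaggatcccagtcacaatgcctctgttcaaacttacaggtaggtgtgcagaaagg

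The MEF2-like match begins 161 bases before the annotated start and overlaps a TATAAA match. The CANNTG matches begin 188 and 87 bases before it. Both strands were searched. A MEF2-like match stands in 3.84% of 33469 promoter windows, TATAAA in 14.2% and CANNTG in 72.1%. Among the other members, Ampd3 had no window. Hprt1 holds a match to the loose MEF2-like pattern 3 bases before its start, and the Xdh window holds 1 CANNTG match and no MEF2-like match. A match describes letters and not binding.

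Marker genes of the cells in the muscle moved as well, and their part in the results was not tested. The 8 markers of adult fast fibres were all well above background in sham muscle on every day. They were all at least 2-fold lower on days 1 and 3, with median log2 ratios of -3.16 and -4.26 and 1 marker saturated in sham muscle, while Ampd1 read -4.84 and -6.39. On day 7, 1 was higher and 1 lower. On day 14, 5 of 8 were higher and the median was 1.10, with 4 of them saturated in injured muscle. Against the mean of the 4 sham channels, 3 of 8 were higher on day 14, 3 lay below 0 and the median was 0.35. Their summed level on the linear scale ranged from 21902 to 329830 in injured muscle and from 182270 to 496770 in sham muscle. In whole muscle, fewer fibres and less RNA per fibre cannot be told apart.

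Red cell markers, of which 4 of 5 were found, had no member past 2-fold lower on any day. Of these 4, 2 were well above background in sham muscle on every day. Their summed level was 567 to 2420 in injured muscle and 653 to 734 in sham muscle. Hbb, a haemoglobin chain, had a log2 ratio of -0.38, -0.03, 2.08 and 1.09 on days 1, 3, 7 and 14, while Ampd3 stayed at -1.94 or below. Epb42, a membrane protein of red cells, was well above background in injured muscle on day 7 only.

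Xanthine dehydrogenase is known from endothelium and from several other cells. Of 6 endothelial markers, 0 were past 2-fold on days 1 and 3, when Xdh read 1.89 and 1.05, and Kdr alone was past it on days 7 and 14, at 1.72 and 1.37. Sham muscle was well above background on every day for 2 of the 6. The endothelial sum was 5821 to 13930 in injured muscle and 3383 to 4670 in sham muscle. Of 6 macrophage markers, 1, 3, 4 and 2 were higher on days 1, 3, 7 and 14, and 1 was lower on each day. Of 5 neutrophil markers, 2 were higher on day 1, none was past 2-fold on day 3, and 2 were lower on days 7 and 14. Of 4 adipocyte markers, 0 were past 2-fold on day 1 and 2 were higher on each later day.

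**Figure D4:**
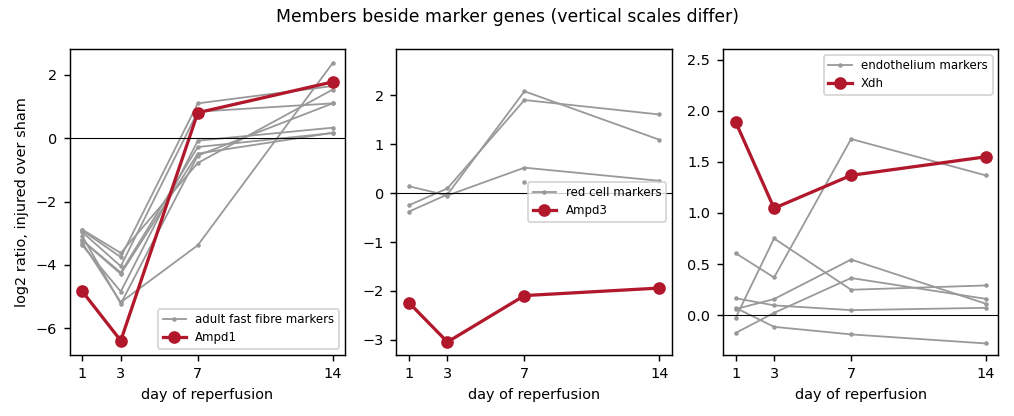
Log2 ratio of injured over sham (vertical axis, scales differ) by day of reperfusion for Ampd1 beside 8 fast fibre markers, Ampd3 beside 4 red cell markers and Xdh beside 6 endothelial markers, with markers in grey, shown on days when they were well above background in either channel. Ampd1 and the fast fibre markers are below sham on days 1 and 3, Ampd3 is below sham on all days, and Kdr is the endothelial marker past 2-fold on days 7 and 14. Values of dim markers understate their distance from sham. A marker saturated in injured muscle, as some were on days 7 and 14, reads too low a ratio, and 1 saturated in sham muscle reads too high a ratio.

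Around these enzymes, 63 of 67 listed purine genes were found on the array. Of these, 17 were past 2-fold on at least 1 day, and the share of all genes past it on any day was not computed. On days 1, 3, 7 and 14, 7, 5, 2 and 2 of 57, 60, 58 and 59 measured genes were lower and 1, 1, 3 and 6 were higher, beside the shares of all genes given above. The limma test of the mean called 0 of 54 of them. An unadjusted p under 0.05 was found for 15 of the 54, beside 21.8% of all genes. Of the 27 values past 2-fold, 16 stayed past it under median centring and 27 kept their sign.

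Enzymes that turn IMP back into AMP and interconvert nucleotides held most of the low values. Adss1, the muscle form of adenylosuccinate synthetase, which with AMP deaminase and Adsl makes up the purine nucleotide cycle, had a log2 ratio of -2.72, -3.74, -1.17 and 0.21 on days 1, 3, 7 and 14. Its second probe gave -1.50, -1.89, -0.51 and 0.45. Adsl, adenylosuccinate lyase, had -1.21, -1.11, 0.44 and -0.10. Gmpr, which reduces GMP to IMP, had -2.18, -2.08, -0.91 and -0.32. Ak1, the adenylate kinase that converts ADP to ATP and AMP in muscle, had -1.10, -1.17, 1.68 and 1.24. As with Ampd1, these 4 genes were low on days 1 and 3, and Ak1 was past 2-fold higher on days 7 and 14. Ak3, a mitochondrial kinase of AMP, was at -1.27 on day 1 and within 2-fold after it.

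De novo purine synthesis had 4 of 5 genes on the array, and none was past 2-fold on any day. The farthest was Atic, which closes the ring to IMP, at -0.78 on day 14, followed by Paics at -0.59 on that day.

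Among enzymes that split nucleotides at the cell surface or in the cytosol, 14 of 17 listed genes were found. Entpd2, which hydrolyses extracellular ATP, was at 1.29 on day 14. Dpp4, a surface peptidase that binds adenosine deaminase in humans, was at 1.77 on day 14. Enpp1, which releases pyrophosphate from ATP, was at 1.10 on day 7. Enpp2, better known for making lysophosphatidic acid, was not well above background in sham muscle on day 14 and was at least 2.15-fold higher there. Enpp3 was at -1.37 on day 14, but its second probe read -0.14.

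Of the genes for purine bases, urate and the molybdenum cofactor, Aox1 is the nearest to Xdh in kind. It encodes aldehyde oxidase, which uses the same cofactor, and had a log2 ratio of -1.09, 0.39, 1.04 and 1.77 on days 1, 3, 7 and 14, so it was below sham on day 1 when Xdh was at 1.89. Abcg2, a transporter that carries urate in humans, was at 1.15 on day 1. Gda, which deaminates guanine to xanthine, was at 0.92 on day 1 and -1.12 on day 14. Urah, an enzyme downstream of urate oxidase, was not well above background in sham muscle on day 14 and was at least 3.17-fold higher there. Sqor, a sulfide oxidoreductase that acts on none of these substrates, was at -1.08 on day 7, but its second probe read -0.29.

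Adenosine transport and reception gave 2 genes past 2-fold. Slc29a1, the equilibrative transporter that carries adenosine across the membrane, had a log2 ratio of -2.38, -1.55, 0.60 and 0.14 on days 1, 3, 7 and 14. Adora2b, a receptor for adenosine, was at 0.83, 1.06, 0.45 and -0.36.

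**Figure D5:**
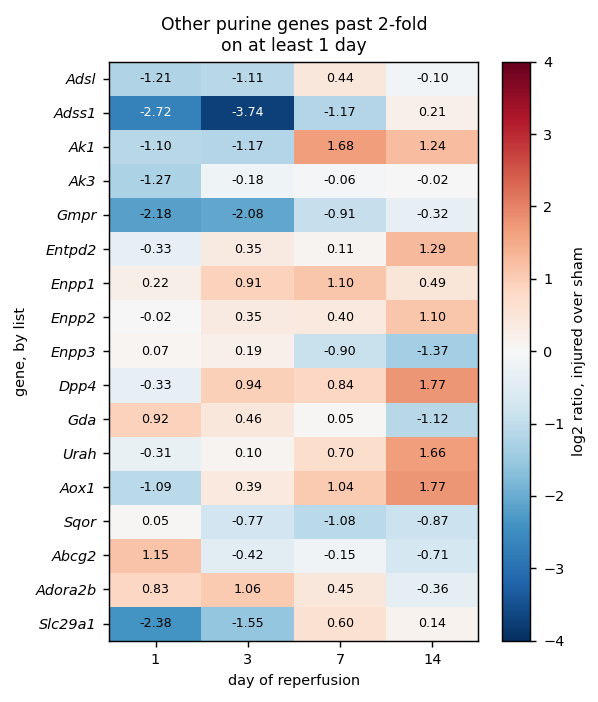
Log2 ratio of injured over sham (colour and printed value) for the 17 other purine genes past 2-fold on at least 1 day, by gene (rows) and day of reperfusion (columns). The lowest values belong to Adss1, Gmpr and Slc29a1 on days 1 and 3, and Dpp4 and Aox1 reach 1.77 on day 14. Genes were chosen by this size, so the colours show no unselected pattern.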

How the data were processed

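Levels were measured on 4 Agilent 2-colour rat arrays of 41012 probes, 1 per day of reperfusion. RNA was amplified and labelled with Cy5 for injured and Cy3 for sham muscle, per the labels' protocols. The authors' scanner files hold mean and background intensity per spot and a log10 ratio of red over green, made by Feature Extraction 10.5.1.1 per the file headers, while the submitters' processing notes name 9.5.3. From the deposited intensities, background was corrected by normexp (offset 50) and each array normalised by loess in limma 3.58.1 (R 4.3.3), with control and outlier spots at weight 0. The authors' deposited ratios were changed from log10 to log2 and kept as an alternative. Levels by channel were set on a common scale by Aquantile. Spots of a probe were averaged, and a gene was read from its brightest probe. A gene was measured on a day if well above background in either channel. The number of arrays limits precision. Spots of 40 probes printed 10 times had a median SD of 0.035 to 0.072 log2 units per array, and sham channels correlated at 0.967 to 0.994 across genes. The mean over the days was tested against 0 with lmFit and eBayes. Alternatives were the deposited ratios, median centring without loess, an offset of 16, both channels above background, the mean of the 4 sham channels, the median of a gene's probes, and leaving out each array. Genes were named through RefSeq tables, and 20132 probes kept the name in the file. The text names every member, the listed purine genes past 2-fold on any day or farthest from sham in their list, and the 3 genes most like Ampd1 and Xdh. Members and lists were chosen with earlier results of these data known.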

Additional observations from a re-analysis of the deposited data

Results flagged for a closer look

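Ampd1 stood on opposite sides of sham on different days by its 3′ probe, which is why it is listed here: the log2 ratio of injured over sham was -4.84 on day 1 and -6.39 on day 3, and 1.78 on day 14. Each value is 1 array, so the difference between the days was not tested. The day 14 array was scanned in another session than the other 3. The 5′ probes of Ampd1 were not well above background in sham muscle on any day and give no ratio to set beside these. Of the 8 measured members, none had a sham level far enough from its other 3 sham levels to pass Dixon's test for 4 samples.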

How the results depend on the processing

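The 2-fold counts of members by day stayed within 1.5 times in 22 of 24 alternatives. Under median centring without loess, 5 members were past 2-fold on day 1, 4 higher and 1 lower, and 5 on day 3, 3 higher and 2 lower, where 22% and 17.2% of all genes were higher. With the median over a gene's probes, Ampd1 was within 2-fold on day 14, by a 5′ probe that was dim in sham muscle, and 1 member was higher. The limma test of the mean called 0 members, and 0 in each fit that left out 1 array, where it called 0 to 8 of all genes. It called 2 with the deposited ratios (Xdh and Ampd3) and 6 under median centring (5 higher and 1 lower). Of all genes it called 3.8% and 41.7% there. With an offset of 16, with both channels above background and with the mean of the 4 sham channels it called 1 (Ampd3). In those settings it called 0.185%, 0.204% and 0.0585% of the genes tested. The deposited ratios put the median of all genes at 0.119 to 0.225, and the cause of the shift under either scaling was not tested. Values past 2-fold in the main setting were those of Xdh and Ampd3 on all 4 days and of Ampd1 on days 1, 3 and 14, and none changed sign. Most of the 160 recomputed values of the 8 members belong to values within 2-fold, which this does not check. Requiring both channels above background changed no member's ratio or count, so its 32 values repeat the main ones. Each ratio sets injured against sham within an array, so the main test of the mean is paired by array. No further blocking was possible, because all 4 arrays carry replicate number 1, which leaves no second number to block on. Limits are 1 array per day, a single dye orientation, and dim probes for Uox and the 5′ end of Ampd1.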

Other observations

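Among 11440 named genes measured on every array, the courses most like Ampd1 were chosen by the smallest largest difference from it over the 4 days. Trdn, which encodes triadin of the calcium release complex, came first, with a difference of at most 0.77 and log2 ratios of -4.30, -5.63, 0.65 and 1.09 on days 1, 3, 7 and 14. Cox8b, a muscle subunit of cytochrome oxidase, was within 1.35, and Apobec2, a muscle protein of the cytidine deaminase family, within 1.48.

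By the same measure the courses most like Xdh were Npy, neuropeptide Y, within 0.54, Klra5, a receptor of natural killer cells, within 0.62, and Tmsb15b2, a thymosin, within 0.64. Npy had log2 ratios of 1.35, 1.15, 1.72 and 1.93 on days 1, 3, 7 and 14. The likeness is a description over 4 arrays.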
